A study of Mus musculus with 10 samples.

Results

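The guanylate-binding proteins (GBPs) and the immunity-related GTPases (IRGs) are interferon-inducible enzymes that bind and hydrolyse GTP. The 10 genes described here were Gbp2, Gbp3, Gbp5, Gbp7 and Gbp9 of the GBP family and Irgm1, Irgm2, Igtp, Iigp1 and Tgtp2 of the IRG family. They were chosen by symbol from a table of 21869 genes, and all 10 were found in it. The libraries came from wild-type mouse retina and were bulk RNA libraries of sorted cells: 5 of cells that were live, CD11b-positive, intermediate for CD45 and CD36-positive, and 5 of cells of the same gate that were CD36-negative. The labels call both populations microglia. CD36 is a scavenger receptor that takes up fatty acids and oxidised lipoproteins. The treatment text attached to every sample describes intravenous sodium iodate (NaIO3, 20 mg/kg), which damages the retinal pigment epithelium and then the photoreceptors, or saline, with eyes taken 7 days later. The sample titles do not say which of these injections the sorted cells came from, nor the age of the mice, nor whether each library was a separate mouse, so p-values measure only the spread between these libraries, which may be technical.

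The CD36-positive libraries are numbered 1, 2, 3, 4 and 7 in their labels, and the CD36-negative libraries 1, 2, 4, 7 and 8. Totals ran from 5001692 to 13250984 estimated counts per library, with CD36-positive 1 the shallowest, and 13531 to 15089 genes were detected. Cd36 itself was at 219 ± 39.9 CPM (CPM, the count of a gene per 1000000 counts of the TMM-scaled library total; SD, n = 5) in the CD36-positive libraries and at 50.3 ± 5.51 (n = 5) in the others, which did not overlap. The sorted markers Itgam (CD11b, 347 ± 59.7 against 399 ± 173 CPM) and Ptprc (CD45, 852 ± 266 against 779 ± 111 CPM) did not pass the test. The summed level of 10 microglia markers ran from 6930 to 15500 CPM among the CD36-positive samples and from 6810 to 15500 CPM among the rest, and 0 of the 10 passed the threshold by edgeR (0 at an unadjusted p under 0.05, and 0 by DESeq2). The threshold is a Benjamini-Hochberg adjusted p under 0.05 over 11596 tested genes. Of these genes 2.61% were called higher and 4.74% lower, and 21.3% had an unadjusted p under 0.05. Markers of other cells differed: all 8 tested T and NK cell markers and all 9 dendritic cell markers were lower in CD36-positive cells. The sum over 13 T and NK cell markers was 0 to 9.03 CPM against 130 to 450 CPM, with Prf1 and Tbx21 at 0 in every CD36-positive library, and that over the dendritic cell markers was 13.7 to 52.4 CPM against 671 to 969 CPM. Of 7 tested border macrophage markers Ms4a7 and Pf4 were higher and F13a1 lower. The estimate was positive for 2 and negative for 5, with a median log2 fold change of -1.51. At an unadjusted p under 0.05, 2 were higher and 4 lower. The sum over the list was 847 to 1130 CPM against 329 to 908 CPM. Of 6 tested Müller cell and astrocyte markers 1 was higher, Kcnj10, and the sums overlapped (9910 to 30600 against 15900 to 21500 CPM). Neutrophil markers summed to 82.4 to 193 against 308 to 842 CPM, and monocyte markers to 469 to 973 against 1260 to 2220 CPM. Photoreceptor markers summed to 101 to 816 against 351 to 2140 CPM, with the highest sum in library 2 of each group. Of 7 tested photoreceptor markers 2 were lower (6 at an unadjusted p under 0.05). The part of these cells in the GTPase values was not tested, and in bulk RNA fewer cells of a type and less RNA per cell cannot be told apart.

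GBPs belong to the dynamin superfamily and are large GTPases that assemble on the membranes of pathogen vacuoles, on bacteria and on viral factories, where they can break the membrane and expose its content to inflammasome sensors. IRGs are smaller GTPases that act on many of the same vacuoles. Among them Irgm1, Irgm2 and Igtp (also called Irgm3) are regulators that sit on the cell's own membranes and keep effector IRGs such as Iigp1 and Tgtp2 inactive there. Interferon gamma induces both families through its receptor and the kinases JAK1 and JAK2, whose signal reaches a DNA element called GAS, and through IRF1, which binds the interferon-stimulated response element, ISRE. Type I interferons also reach the ISRE.

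The promoters are shown because an ISRE match was found in each member with a listed promoter, and a GAS match in some. The parts shown for the neighbours Igtp and Irgm2 were also near copies of each other. RefSeq promoter windows (build GRCm38.p6, from 250 bases before to 50 bases after each transcription start) were listed for 8 of the 10 members, in 9 windows; Gbp9 and Iigp1 were not listed. The letters searched on both strands were TTCNNNGAA for GAS, which reads the same on the other strand, and GAAANNGAAA for ISRE, which reads TTTCNNTTTC on the other strand; the motifs may overlap. An ISRE match was present in at least 1 window of all 8 members, against 3.44% of all 32851 windows, and a GAS match in 5 members (Gbp5, Gbp7, Tgtp2, Igtp and Irgm2), against 8.3%. A match is a description of the letters and not a mapped binding site. In Tgtp2, Igtp and Irgm2 the GAS was followed after a gap of 2 bases by the ISRE. This arrangement, with the ISRE starting 11 bases after the GAS, occurred in 5 of the 32851 windows (0.0152%), and all 5 belonged to the IRG family: Tgtp1, Tgtp2, Igtp, Irgm2 and Gm12185. In GENCODE, Gm12185 starts at chr11:48992226 on the minus strand, inside the window of Tgtp1 (chr11:48992197-48992496). The windows of Tgtp1 and Gm12185 may therefore hold the same motifs and not be separate occurrences. The lines give the part of each window around the motifs on the gene's own strand, with the bases of the motifs in capitals. They lie at chr11:48992302-48992346 (minus strand, within the gene span of Tgtp1), chr11:49064261-49064305 (minus strand, upstream of Tgtp2), chr11:58199499-58199543 (plus strand, upstream of Igtp) and chr11:58214890-58214934 (plus strand, inside the GENCODE span of Irgm2 but in none of its exons). The windows of Tgtp1 and Tgtp2 also lie within the span of Olfr56 on the other strand.
Tgtp1: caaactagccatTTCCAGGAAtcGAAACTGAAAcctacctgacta
Tgtp2: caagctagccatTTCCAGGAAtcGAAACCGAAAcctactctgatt
Igtp: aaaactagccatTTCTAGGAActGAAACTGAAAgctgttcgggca
Irgm2: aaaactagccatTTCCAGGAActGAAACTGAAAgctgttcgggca

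Of the 45 bases shown, Igtp and Irgm2 had 44 in common, Tgtp1 and Tgtp2 37, and Tgtp2 and Igtp 32. The ISRE began 34 bases before the start of Igtp, 64 before that of Irgm2, 70 before that of Tgtp2 and 77 before that of Tgtp1. The other members had the motifs in other arrangements, and the next lines show the part around the ISRE. Irgm1 (chr11:48871423-48871462, minus strand, within an exon of a non-coding Irgm1 transcript) and Gbp3 (chr3:142559987-142560026, plus strand, upstream apart from its last base) each had a pair of overlapping ISRE matches. Gbp2 (chr3:142620592-142620625, plus strand, reaching into the 5′ UTR of its first exon) had 1 ISRE match and no GAS match. Gbp7 (chr3:142530218-142530304, plus strand, upstream) had 2 GAS matches upstream of its ISRE, and Gbp5 (chr3:142496757-142496790, plus strand, inside the gene span but in no exon) had its ISRE farthest from the start, 165 bases before it, and GAS matches 245 and 52 bases before it, outside the part shown. In the 4 GBP genes the ISRE was on the strand opposite to the gene, and in the 4 IRG genes on the gene's own strand.
Irgm1: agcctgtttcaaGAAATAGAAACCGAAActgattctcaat
Gbp2: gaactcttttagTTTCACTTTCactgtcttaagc
Gbp3: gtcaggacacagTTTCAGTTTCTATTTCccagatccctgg
Gbp7: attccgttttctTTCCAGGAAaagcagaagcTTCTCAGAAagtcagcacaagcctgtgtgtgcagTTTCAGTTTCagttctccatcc
Gbp5: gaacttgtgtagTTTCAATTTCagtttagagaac

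**Figure D1:**
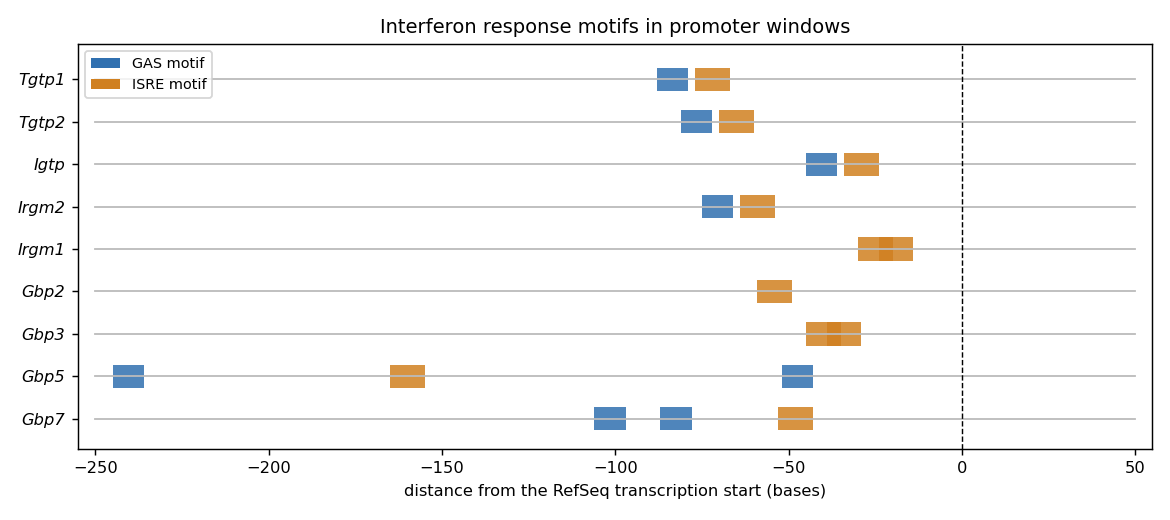
Position of each GAS match (blue) and ISRE match (orange) in the RefSeq promoter window of 8 members and of Tgtp1, in bases from the transcription start (dashed line). Tgtp1, Tgtp2, Igtp and Irgm2 have the same pair of motifs with a gap of 2 bases, and the pair begins between 45 bases (Igtp) and 88 bases (Tgtp1) before the start.

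None of the 10 GTPase genes differed between CD36-positive and CD36-negative cells past the threshold by edgeR's quasi-likelihood test: 0 were called higher and 0 lower, where 2.61% of all tested genes were called higher, 4.74% lower and 7.36% in either direction. The estimated change was positive (higher in CD36-positive cells) for 8 members and negative for Gbp2 and Tgtp2, with a median log2 fold change of 0.51, beside a median of 0.017 and 51.2% positive values over all tested genes. Unadjusted p was under 0.05 for 4 members, Gbp3, Gbp9, Irgm1 and Iigp1, and 21.3% of all tested genes were under it too. DESeq2 called 1 member higher, Iigp1. No member had groups that did not overlap; over all tested genes 2.59% had every CD36-positive library above every CD36-negative library and 5.83% had every one below. A call that misses the threshold does not show equal levels, so the interval of each difference is given with it.

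**Figure D2:**
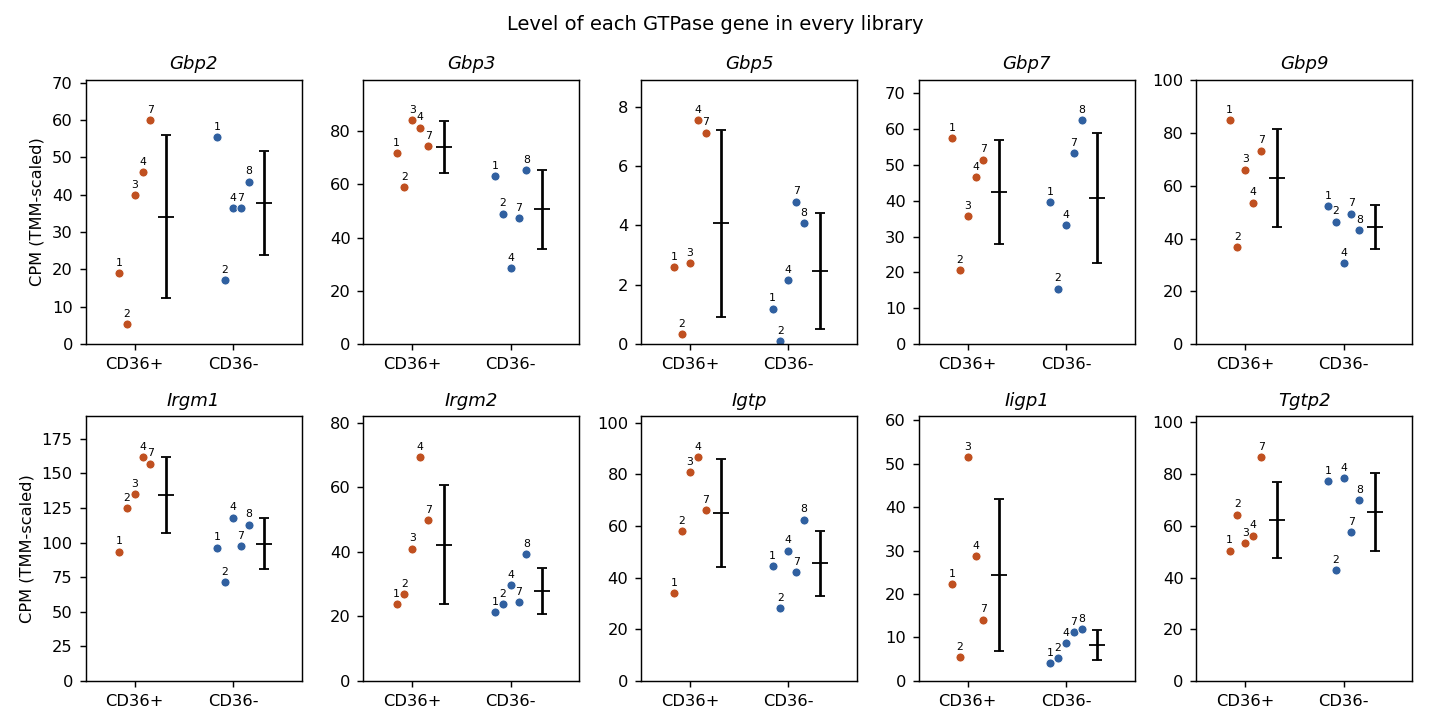
Level of each of the 10 genes in CPM (TMM-scaled, linear axis from 0) in the 5 CD36-positive (orange) and 5 CD36-negative (blue) libraries; numbers are the libraries' labels, and bars give mean ± SD. The groups overlap for every gene, and Gbp2, Gbp5 and Gbp7 are lowest in library 2 of each group.

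The regulatory IRGs had positive estimates and overlapped between the groups. Irgm1, needed by macrophages to control intracellular bacteria (chr11:48861968-48871683, minus strand, GENCODE M21), was at 93.4, 125, 135, 162 and 157 CPM in CD36-positive libraries 1, 2, 3, 4 and 7, and at 96.4, 71.2, 118, 97.6 and 113 CPM in CD36-negative libraries 1, 2, 4, 7 and 8. Of the CD36-positive libraries 4 lay above every CD36-negative library, and CD36-positive 1, the shallowest, lay below 4 of them. The log2 fold change was 0.44 (SE 0.20, 95% interval 0.02 to 0.86, adjusted p = 0.205).

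Igtp (chr11:58199556-58207591, plus strand) was at 33.9, 58.1, 81.0, 86.8 and 66.0 CPM in the CD36-positive and at 44.6, 28.1, 50.5, 42.0 and 62.5 CPM in the CD36-negative libraries. Irgm2, whose GENCODE span overlaps that of Igtp and runs past its end (chr11:58199618-58222782, plus strand), was at 23.8, 27.0, 41.0, 69.5 and 49.9 CPM against 21.4, 23.8, 29.8, 24.5 and 39.4 CPM. Both were highest in CD36-positive 4 and overlapped between the groups. The log2 fold changes were 0.52 for Igtp (SE 0.26, interval -0.03 to 1.07, adjusted p = 0.27) and 0.61 for Irgm2 (SE 0.29, interval -0.01 to 1.22, adjusted p = 0.242).

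The effector IRGs differed in their values. Iigp1 (Irga6), which loads onto parasite vacuoles (chr18:60376027-60392634, plus strand), was at 22.3, 5.53, 51.6, 28.8 and 14.1 CPM in the CD36-positive libraries and at 4.12, 5.24, 8.69, 11.2 and 12 CPM in the CD36-negative ones. All CD36-positive libraries except library 2 lay above every CD36-negative library, and library 3 was the highest. The means of 24.5 ± 17.5 and 8.25 ± 3.51 CPM (SD, n = 5 each) went with a fitted difference of 2.96-fold, a log2 fold change of 1.56 (SE 0.48, interval 0.54 to 2.59), with an adjusted p of 0.0613. This was the lowest adjusted p of the 10 members, and its call depended on the setting. Iigp1 passed without CD36-positive 2 (1.80, adjusted p = 0.014), without CD36-positive 7 (1.71, 0.0462), with no filter on low counts (1.54, 0.0177) and in the DESeq2 Wald test (1.57, 0.0193). Without CD36-positive 3 the log2 fold change was 1.10 (adjusted p = 0.214), and without the shallow CD36-positive libraries 1 and 3 it was 0.97 (0.332).

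Tgtp2 (Irgb6), which marks vacuoles for other IRGs (chr11:49057194-49064206, minus strand), was at 50.4, 64.3, 53.4, 56.2 and 86.7 CPM against 77.4, 42.8, 78.3, 57.7 and 70.0 CPM. The highest library was CD36-positive 7 and the lowest CD36-negative 2, and the ranges lay across each other. The log2 fold change was -0.07 (SE 0.22, interval -0.53 to 0.39, adjusted p = 0.896), the lowest upper bound of the 10 members.

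Among the GBPs of chromosome 3, Gbp2, which coats vacuoles and helps release bacterial DNA to the sensor AIM2 (chr3:142620602-142638008, plus strand), was at 19.0, 5.42, 40.0, 46.1 and 60.0 CPM in the CD36-positive and at 55.4, 17.1, 36.4, 36.5 and 43.5 CPM in the CD36-negative libraries. CD36-positive libraries took both the highest and the lowest place. The log2 fold change was -0.15 (SE 0.45, interval -1.09 to 0.80, adjusted p = 0.89). The highest CD36-positive library was 11.1 times the lowest, compared with 3.24 times among the CD36-negative libraries.

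Gbp3 (chr3:142560026-142573209, plus strand) was at 71.6, 58.9, 84.1, 81.3 and 74.4 CPM against 63.1, 49.0, 28.6, 47.3 and 65.4 CPM. CD36-positive 2 was the one library of its group inside the CD36-negative range. The log2 fold change was 0.55 (SE 0.22, interval 0.08 to 1.02, adjusted p = 0.161). Gbp7, linked to assembly of the phagocyte NADPH oxidase (chr3:142530342-142550149, plus strand), was at 57.5, 20.7, 35.8, 46.5 and 51.5 CPM against 39.6, 15.5, 33.2, 53.2 and 62.5 CPM. Its groups covered nearly the same range, with a log2 fold change of 0.05 (SE 0.33, interval -0.65 to 0.75, adjusted p = 0.945).

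Gbp5, linked to assembly of the NLRP3 inflammasome (chr3:142493978-142522344, plus strand), had the lowest level of the 10 per length. It was at 2.61, 0.339, 2.72, 7.55 and 7.13 CPM in the CD36-positive libraries and at 1.20, 0.101, 2.15, 4.80 and 4.09 CPM in the CD36-negative ones. Library 2 of either group was nearly without Gbp5, with 3 and 1 counts, and CD36-positive 4 and 7 and CD36-negative 7 and 8 were the highest. The same 4 libraries had the highest summed microglia markers, 15400 to 15500 CPM, against 6810 to 10800 CPM in the other 6, and the part of this in the Gbp5 values was not tested. The log2 fold change was 0.72 with a wide interval of -1.12 to 2.57 (SE 0.87, adjusted p = 0.694), so the interval held a 2-fold difference in either direction.

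Gbp9 belongs to the GBP cluster of chromosome 5 (chr5:105077630-105139539, minus strand). It was at 84.9, 36.7, 66.1, 53.6 and 73.3 CPM against 52.2, 46.4, 30.6, 49.5 and 43.3 CPM. All CD36-positive libraries except library 2 were above every CD36-negative library. The log2 fold change was 0.50 (SE 0.23, interval 0.01 to 1.00, adjusted p = 0.227).

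Compared per length (mean CPM per kilobase of merged exons over the 10 libraries), Igtp was the highest at 27.4 ± 9.53 (SD, n = 10), followed by Tgtp2 at 21.7, Irgm1 at 20.1, Gbp3 at 19.1, Gbp2 at 14.3, Gbp9 at 10.4, Irgm2 at 9.49, Gbp7 at 7.41, Iigp1 at 2.81 and Gbp5 at 0.493. Most neighbours in this order changed places between libraries: Igtp was above Tgtp2 in 6 of 10 libraries and Irgm1 above Gbp3 in 5. The lower end was steadier, with Gbp7 above Iigp1 in 9 and Iigp1 above Gbp5 in all 10.

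The estimated counts of 7 of these genes were tied to those of a neighbour or near copy. The deposited estimates held decimals that summed to a whole number, within 0.015, when neighbouring or near-identical genes were added. This was so for Tgtp1 with Tgtp2 and for Igtp with Irgm2 in 8 of 8 libraries with decimals, for Gbp3 with Gbp7 in 7 of 7, for Gbp4, Gbp6, Gbp8, Gbp9 and Gbp10 in 9 of 9, and for Gbp2 with Gbp2b in 1 of 1. For Tgtp2, Igtp, Irgm2, Gbp3 and Gbp7, no other gene of the table completed the decimals in every such library. Gbp5, Irgm1 and Iigp1 held whole numbers throughout. In the GENCODE M21 transcripts, 81.4% of the 75-base stretches of Tgtp2 also occurred in Tgtp1, compared with 7.8% of those of Igtp in Irgm2 and none of those of Irgm1 and Iigp1 in another gene.

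The division of reads between Tgtp1 and Tgtp2 differed between libraries. Tgtp1 received 0, 0, 24.5, 1.49 and 0.231% of the counts of the pair in the CD36-positive libraries and 25.9, 27.9, 9.92, 13.8 and 8.83% in the CD36-negative ones. CD36-positive 3 thus had a share like that of CD36-negative 1 and 2, while the other CD36-positive libraries had almost none. The estimate for Tgtp1 alone was -1.90 on the log2 scale (interval -4.15 to 0.35, adjusted p = 0.327), and the pair summed had -0.26 (interval -0.70 to 0.18, adjusted p = 0.524). Without CD36-positive 3, Tgtp1 alone passed as lower (-5.44, adjusted p = 0.000966), and it passed in 6 of its 22 settings. The pair summed did not pass without that library (-0.28, adjusted p = 0.563), nor did Tgtp2 in any setting.

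**Figure D3:**
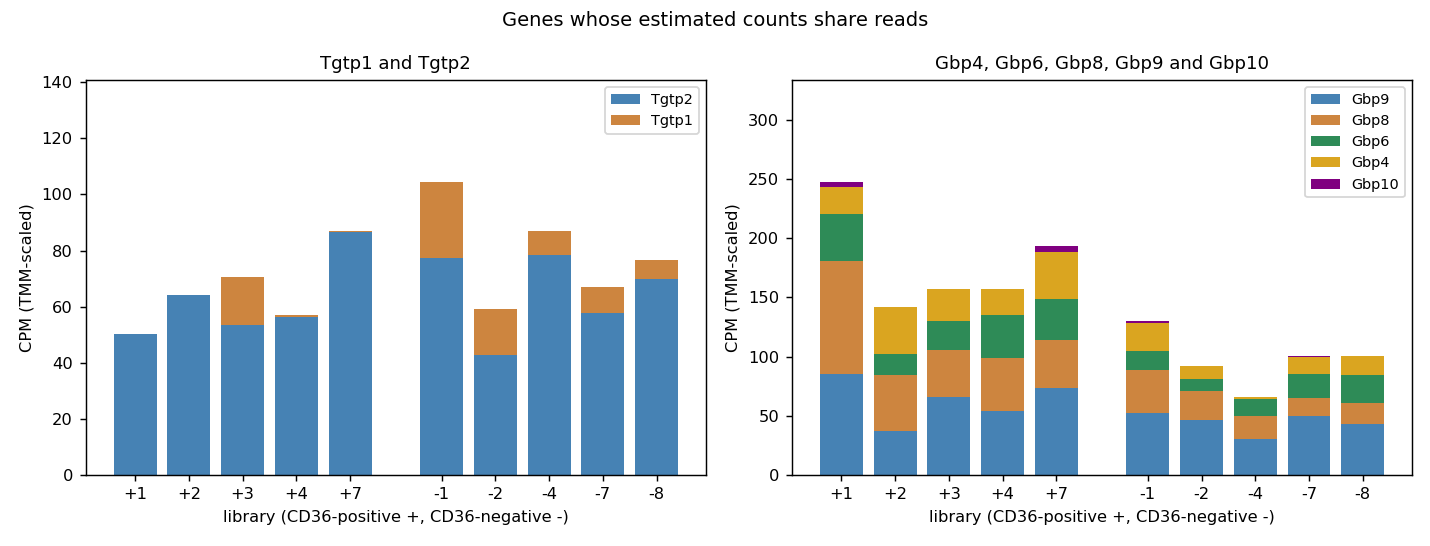
Stacked levels in CPM (TMM-scaled) of the genes whose estimated counts add up to whole reads, for Tgtp1 with Tgtp2 (left) and for the 5 GBP genes of chromosome 5 (right), in the 5 CD36-positive (+) and 5 CD36-negative (-) libraries. The 5 GBP genes together are at 142 to 248 CPM in the CD36-positive and at 65.5 to 130 CPM in the CD36-negative libraries, whereas the Tgtp pair overlaps.

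When the genes that share reads were summed, which was chosen after the decimals were seen, the GBP cluster of chromosome 5 rose in CD36-positive cells. Gbp4, Gbp6, Gbp8, Gbp9 and Gbp10 together were at 248, 142, 157, 157 and 193 CPM in the CD36-positive and at 130, 92.0, 65.5, 100 and 101 CPM in the CD36-negative libraries. The groups did not overlap, and the log2 fold change was 0.88 (SE 0.21, interval 0.44 to 1.32, adjusted p = 0.0148), where 2.61% of the 11590 rows of that fit were called higher. Among the 11596 genes tested singly, 2.59% had every CD36-positive library above every CD36-negative one. The sum was not called without CD36-negative 4 (0.74, adjusted p = 0.0579), and it was called without each of the other libraries in turn, at 0.72 to 1.00. The other sums were not called: Igtp with Irgm2 had a log2 fold change of 0.55 (adjusted p = 0.217), Gbp3 with Gbp7 0.35 (0.402) and Gbp2 with Gbp2b -0.13 (0.904).

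Gbp9 is the member of this cluster among the 10 genes, and the estimates of its tested partners, Gbp4, Gbp6 and Gbp8, had the same sign. Of 18 other GBP and IRG genes listed, 17 had a row in the table and 12 were tested: 1 was higher, Gbp8, and 0 were lower by edgeR (6 higher and 1 lower at an unadjusted p under 0.05; DESeq2 called 3 higher and 0 lower of 17), with a median log2 fold change of 0.51. Gbp8 (chr5:105014150-105139540) was at 96.0, 47.4, 39.5, 45.5 and 40.4 CPM in the CD36-positive and at 36.0, 24.7, 19.2, 15.6 and 17.8 CPM in the CD36-negative libraries. It rose by a log2 fold change of 1.24 (SE 0.30, interval 0.62 to 1.87, adjusted p = 0.0148), and its groups did not overlap. Over all tested genes 2.61% were called higher by edgeR, and 21.3% had an unadjusted p under 0.05 in either direction. Every CD36-positive library was above every CD36-negative one in 2.59% of them. The border macrophage markers Ms4a7 and Pf4 were higher in the same CD36-positive libraries, while 5 of the 7 tested markers of that list had negative estimates. The part of border macrophages in the values of Gbp8 and the cluster was not tested. The call was lost without CD36-negative 4 (1.17, adjusted p = 0.0523), without the shallow CD36-positive libraries 1 and 3 (0.96, 0.0506), and within the 5 libraries of high Y-linked level, CD36-positive 1, 2 and 3 and CD36-negative 1 and 2 (0.96, 0.367). Gbp8 shares reads with Gbp9, and its GENCODE span overlaps those of Gbp4 and Gbp9, so its value alone is uncertain.

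The remaining tested relatives did not pass in the edgeR fit of all libraries. Gbp4 had a log2 fold change of 1.15 (adjusted p = 0.135) and Gbp6 of 0.89 (0.0835). The neighbours of Iigp1 on chromosome 18, Gm4951 and F830016B08Rik, had 1.20 (0.172) and 1.75 (0.105), and Gvin1, a very large interferon-inducible GTPase, had 0.55 (0.096). On chromosome 11, Ifi47 had 0.18 (0.728), the pseudogene Gm12250 0.47 (0.289), 9930111J21Rik1 -1.08 (0.221) and 9930111J21Rik2 0.29 (0.684), and on chromosome 7 Irgq had -0.45 (0.553). Gbp6 passed without CD36-positive 2 (1.01, adjusted p = 0.0489), and so did Gvin1 (0.66, 0.0377). With the Y-linked level held as a term, Gm4951 (1.56, 0.0174) and Gbp6 (0.95, 0.042) passed. Gbp2b, Gbp10, Gm4841, Gm12185 and Irgc1 had too few counts to be tested.

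**Figure D4:**
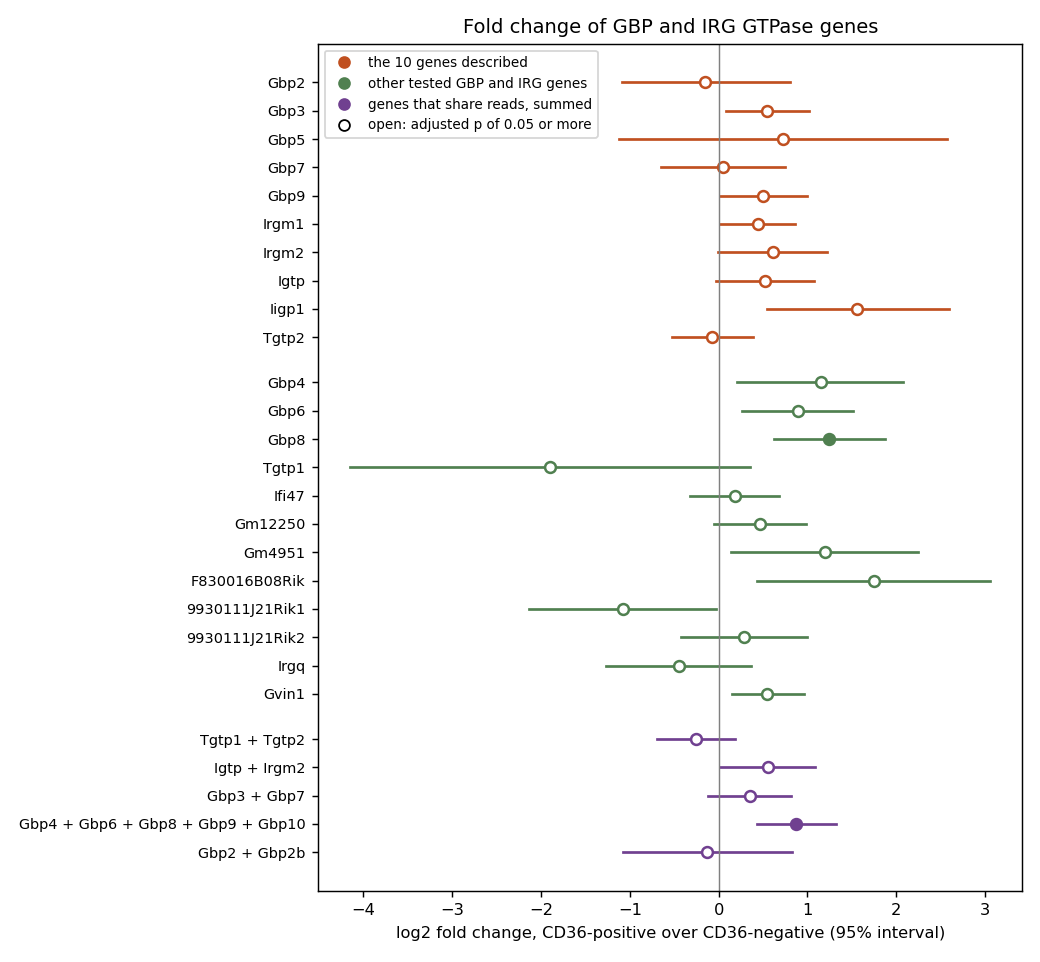
Log2 fold change of CD36-positive over CD36-negative cells with its 95% interval for the 10 genes (orange), the 12 other tested GBP and IRG genes (green) and the sums of genes that share reads (purple); filled points have an adjusted p under 0.05. Gbp8 and the sum over the 5 GBP genes of chromosome 5 are the filled points, and 8 of the 10 orange points lie right of 0.

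The receptor chains of interferon gamma and Irf1 did not pass the threshold. Ifng, the gene of interferon gamma itself, made mainly by T and NK cells, was not tested: it had 1 count over all CD36-positive libraries and 23 over the CD36-negative ones, which came from CD36-negative 1 (1.63 CPM) and CD36-negative 7 (0.418 CPM). CD36-negative libraries also held the T and NK cell markers given above, whose part was not tested. Ifngr1, the ligand-binding receptor chain, was at 578 ± 165 CPM against 799 ± 106 CPM (SD, n = 5 each; log2 fold change -0.47, adjusted p = 0.187). Ifngr2, the signalling chain, had a log2 fold change of -0.11 (adjusted p = 0.803), and Irf1 of -0.19 (0.627).

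Of the 17 tested genes of the interferon gamma receptor and its signalling, 0 were higher and 2 lower. At an unadjusted p under 0.05, 0 were higher and 4 lower, and DESeq2 called 0 higher and 3 lower of 18. The median log2 fold change was -0.19, and 4.74% of all tested genes were called lower. An unadjusted p under 0.05, in either direction, was found for 21.3% of all tested genes. Jak2, the kinase bound to Ifngr2, was at 62.0, 34.0, 36.5, 34.9 and 34.4 CPM in the CD36-positive and at 145, 168, 125, 134 and 113 CPM in the CD36-negative libraries. The groups did not overlap, and Jak2 fell by 1.77 on the log2 scale (SE 0.21, adjusted p = 3.9e-05). Of all tested genes 5.83% had every CD36-positive library below every CD36-negative one. Stat3, which the receptor can also activate, fell by 0.67 (SE 0.18, adjusted p = 0.0335). The call of Stat3 was lost when any library other than CD36-positive 4 or CD36-negative 1 was left out (8 of 10 libraries, adjusted p = 0.0508 to 0.103), and that of Jak2 in none of these fits. Cish, a feedback inhibitor, had -2.62 (adjusted p = 0.0703) and passed as lower without CD36-positive 1 (-3.56, 0.0166) or CD36-negative 7 (-2.93, 0.0365). The T cell and dendritic cell markers were higher in the same CD36-negative libraries, and their part was not tested.

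Other genes that interferon gamma induces were split. Of 21 tested, 2 were higher, 1 was lower and 18 did not pass, with a median of 0.04. Over all tested genes 2.61% were called higher, 4.74% were called lower and 21.3% had an unadjusted p under 0.05 in either direction. At an unadjusted p under 0.05 the list had 4 higher and 4 lower, and DESeq2 called 2 higher and 1 lower of 24. Fcgr1, the high-affinity IgG receptor, rose by a log2 fold change of 0.97 (SE 0.19, adjusted p = 0.00387), and Cxcl10, a chemokine for T cells, by 1.60 (SE 0.37, adjusted p = 0.0129). Ciita, the master regulator of MHC class II genes, which dendritic cells express strongly, fell by 2.24 (SE 0.26, adjusted p = 2.6e-05), in the libraries in which dendritic cell markers were lower too. Cxcl10 was not called without the shallow CD36-positive libraries 1 and 3 (1.39, adjusted p = 0.0674).

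Genes induced by type I interferon had a median log2 fold change of 0.55, close to the 0.51 of the 10 GTPases. Of 28 listed, 26 were tested by edgeR, where 2.61% of all tested genes were called higher. Unadjusted p was under 0.05 for 12 higher and 0 lower genes of the list, beside 21.3% of all tested genes in either direction. DESeq2 called 7 higher and 0 lower genes of the list. By edgeR 4 were higher and 0 lower. The 4 were Ifi44 (2.03, SE 0.23), Trim30a (1.03, SE 0.23), Bst2, a tetherin that holds virions at the cell surface (0.97, SE 0.20), and Oas1g, a sensor of double-stranded RNA (0.90, SE 0.26). The estimate was positive for 25 of the 26. The call of Oas1g was lost when any library other than CD36-positive 1 or CD36-negative 8 was left out (8 of 10, adjusted p = 0.0598 to 0.12), and that of Trim30a without CD36-positive 1 and 3 together (0.61, 0.0525). The count of higher genes moved with the setting: 7 without CD36-positive 1, 8 with limma voom, 11 with the Y-linked level held as a term, and 2 within the libraries of high Y-linked level. Among the genes gained, Oasl1 (1.13, adjusted p = 0.00861) and Xaf1 (1.00, 0.00505) passed without CD36-positive 1, Rtp4 without CD36-positive 1 or CD36-negative 8, and Rsad2 without CD36-positive 2 or CD36-negative 7. The list was not compared with the GTPases by a test. Among the receptor genes Tyk2, the kinase bound to Ifnar1, fell by 0.88 (SE 0.21, adjusted p = 0.0131).

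Genes that work with the GTPases were also read from the fit, in which 2.61% of all tested genes were called higher, 4.74% lower and 7.36% in either direction. Of 14 tested genes for conjugation of ATG8 proteins and for loading onto vacuoles, 1 was lower, Gabarapl2 (log2 fold change -0.66, adjusted p = 0.0436), which takes part in GBP and IRG targeting. Its call was lost when any library other than CD36-positive 3 or CD36-negative 8 was left out (8 of 10, adjusted p = 0.0536 to 0.12). By edgeR 0 of the 14 were higher, and DESeq2 called 1 higher and 1 lower. At an unadjusted p under 0.05, 1 was higher and 4 were lower, beside 21.3% of all tested genes in either direction. The estimate was positive for 4 and negative for 10, with a median log2 fold change of -0.18. Trim21, a ubiquitin ligase, had 2.09 (adjusted p = 0.0748) and passed without CD36-positive 7 (2.37, 0.0236) or CD36-negative 2 (2.71, 0.0358). Of 6 prenylation enzyme genes, which modify the membrane tail of some GBPs, 0 were called by edgeR (0 at an unadjusted p under 0.05, and 0 by DESeq2). Of 10 inflammasome genes 2 were called: Casp1 rose by 0.64 (SE 0.17, adjusted p = 0.0298) and Il1b, the cytokine precursor that caspase-1 cuts, fell by 1.53 (SE 0.27, adjusted p = 0.00166). The call of Casp1 was lost without CD36-positive 2 or 3 or without CD36-negative 4, 7 or 8 (adjusted p = 0.0586 to 0.108).

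**Figure D5:**
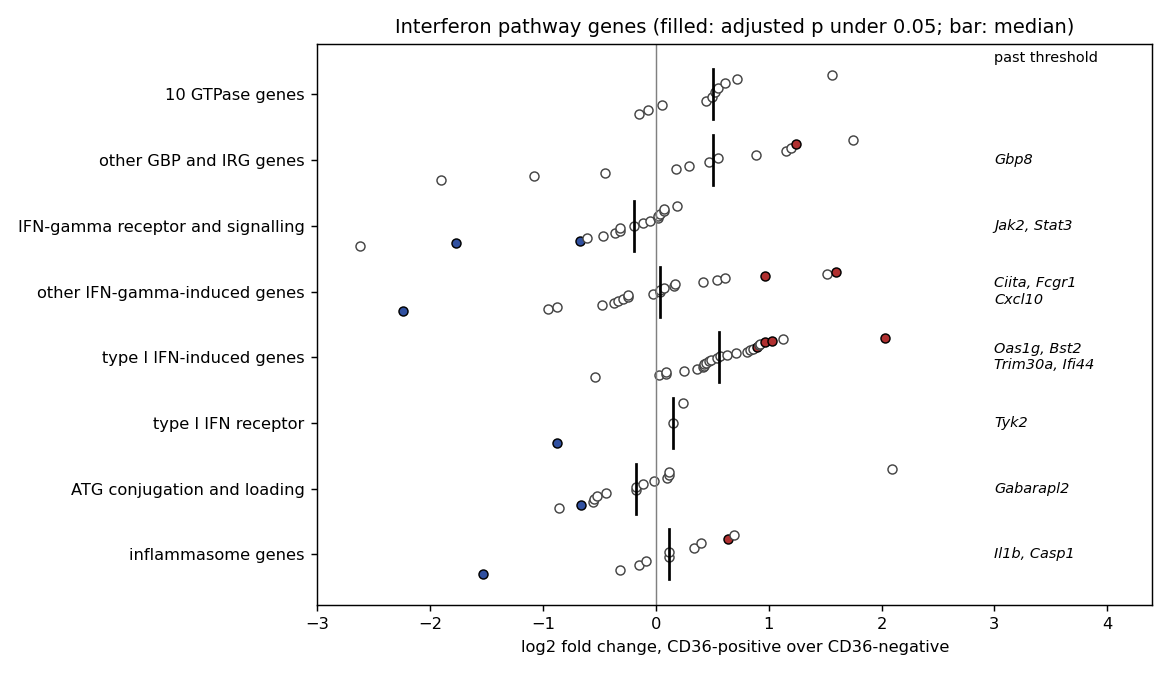
Log2 fold change of CD36-positive over CD36-negative cells for each tested gene (points) of the GTPase lists and the lists of interferon and partner genes; filled points have an adjusted p under 0.05 and are named at the right, and vertical bars are list medians. The medians of the 10 GTPases (0.51) and of type I interferon-induced genes (0.55) lie right of 0, and that of interferon gamma signalling (-0.19) lies left of it.

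Within each group the members varied together to different degrees. With group means removed, Gbp2 and Gbp5 each correlated at r = 0.88 with the mean of the other members over the 10 libraries, Gbp7 at 0.73, Irgm2 at 0.67, Irgm1 at 0.64 and Igtp at 0.63. Iigp1 was at 0.52, Gbp3 and Tgtp2 at 0.33 and Gbp9 at 0.19. These are descriptions over libraries that also differ in depth and in the split described next. The genes outside the families whose profile was most like the members' mean, among 9258 ranked, were Naprt (r = 0.918), Aldh7a1 (0.914), Lrch3 (0.913), C4b (0.912) and Dhx32 (0.906).

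The libraries fell into separate sets by the summed level of the Y-linked genes Ddx3y, Eif2s3y and Kdm5d, which was 184 to 324 CPM in 5 libraries (CD36-positive 1, 2 and 3, CD36-negative 1 and 2) and 18.4 to 57.6 CPM in the other 5. The sets held both groups. Libraries that share a number fell in the same set, 1 and 2 in the first and 4 and 7 in the second. Gbp5 was at 0.101 to 2.72 CPM in the first set and at 2.15 to 7.55 CPM in the second, a ratio of means of 3.69. The ratio was 1.62 for Gbp2, 1.56 for Irgm2 and 1.46 for Gbp7, and 0.843 for Iigp1. The first set held 3 CD36-positive and 2 CD36-negative libraries and the second 2 and 3. These ratios may therefore also carry the difference between the groups. Within the set of high Y-linked level (3 against 2 libraries), Iigp1 averaged 26.5 CPM where CD36 was positive and 4.68 CPM where it was negative, with a log2 fold change of 2.45 (adjusted p = 0.172). Within the other set (2 against 3 libraries) it averaged 21.5 and 10.6 CPM, with 1.01 (adjusted p = 0.213). Neither edgeR fit within a set called any of the 10 members; 1 member had an unadjusted p under 0.05 in the first set and 6 in the second. A fit that held the Y-linked level as a term called 0 of them, with 6 members under an unadjusted p of 0.05, and called 3.39% of all genes higher. The share of all genes under an unadjusted p of 0.05 is not given for these fits, so these counts of members are descriptions only. In the fit of all libraries without that term the share was 21.3%. The sum over the chromosome 5 cluster had a log2 fold change of 0.67 (adjusted p = 0.435) in the first set and 0.98 (0.0137) in the second. The difference between the sets was not tested.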

How the data were processed

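Gene counts were deposited for 10 libraries of sorted retinal cells, 5 CD36-positive and 5 CD36-negative. The authors deposited estimated counts per gene, not normalised, per the file headers; 91.916% of values are whole. The submitters' processing notes name fastp 0.18.0, Bowtie2 2.2.8, HISAT2 2.1.0, StringTie 1.3.1 and the build mm10, with no roles. No label or header names the counting program or how it divided reads that fit several genes.

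The table had 22008 lines, of which 8 were damaged and 131 repeated; both were left out, 21869 genes remained, and no member lay beside damage. Counts were rounded, filterByExpr kept genes by a minimum count of 10, and libraries were scaled by TMM. The main test was the quasi-likelihood test of edgeR 4.0.16 (all 10 libraries, no covariate, Benjamini-Hochberg over 11596 genes, threshold 0.05, two-sided), in R 4.3.3. DESeq2 1.42.0 and limma 3.58.1 were alternatives. The fit was run on counts simulated from its own fitted means and dispersions with planted changes. Such counts lack the Y-linked and cell marker differences between these libraries, so this run does not show how the fit performs on them. Levels are CPM on TMM-scaled sizes. Intervals are 95%. Motifs were searched in RefSeq promoters; positions are from GENCODE M21 (GRCm38, the assembly of mm10). Totals of 5001692 to 13250984 counts limit precision for low genes such as Gbp5.

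The members, gene lists and tests were chosen with earlier results of these data known. Named genes are all members, all listed GBP and IRG relatives, up to 6 called genes per pathway list with Ifng, Ifngr1, Ifngr2 and Irf1, the sort markers Cd36, Itgam and Ptprc, and the 5 genes most alike in group-centred log2 CPM; 1 gene of this rule is not reported here. No 2 libraries of a group agreed within sampling noise.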

Additional observations from a re-analysis of the deposited data

How the results depend on the processing

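Over 22 or 23 alternatives each, Gbp3, Gbp5, Gbp9, Irgm1, Irgm2 and Igtp kept a positive estimate and never passed the threshold, and Iigp1 kept its sign at 0.97 to 2.45 and passed in 4. The signs of the near-zero members were not stable. Gbp2 was 0.45 in libraries of low Y-linked level and -0.46 to 0.12 when 1 library was left out. Gbp7 was -0.05 without the shallow CD36-positive libraries 1 and 3, -0.07 with limma voom, -0.02 in libraries of low Y-linked level and -0.16 to 0.26 when 1 library was left out. Tgtp2 was 0.02 with the replicate block, 0.07 without the shallow libraries and 0.06 in libraries of low Y-linked level. The replicate block left out CD36-positive 3 and CD36-negative 8, whose label numbers occur in only 1 group. A block by the numbers in the sample titles, whose pairs partly differ, used all 10 libraries and gave -0.06 for Tgtp2. The cause of these sign changes was not tested.

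The number of members called higher was 1 with no filter on low counts and 1 by DESeq2, and 0 to 1 when 1 library was left out. Over all genes, 303 higher calls became 181 with the replicate block, 188 without the shallow libraries, 615 by DESeq2, 137 and 33 within the low and high Y-linked sets, 90 at a threshold of 0.01, and 132 to 380 when 1 library was left out. With the block by title numbers over all 10 libraries there were 271. The part of the left-out libraries in the fall to 181 was not tested. The 550 lower calls became 862, 215 (high Y-linked set) and 330 under the same DESeq2, set and threshold changes, and 422 to 583 when 1 library was left out. The fits within the Y-linked sets used 5 libraries each.

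Libraries of the same number correlated at 0.029, 0.133, 0.099 and 0.101 in their deviations (numbers 1, 2, 4 and 7), and the main test did not pair them. For CD36-positive 2 the CD36-negative library with the highest correlation had the same number. For CD36-positive 1 it was CD36-negative 2, and for CD36-positive 4 and 7 it was CD36-negative 8. Both libraries of each number fell in the same Y-linked set, high for 1 and 2 and low for 4 and 7. Whether the numbers are pairs is therefore not settled. With the replicate block 0 members were called, and 3 relatives were higher and 1 lower. The block by title numbers called 0 members, 2 relatives higher and 1 lower. A planned change of pseudocount was not run because the values are counts.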
